A study of Rattus norvegicus with 30 samples.

Results

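Potassium channels carry the outward currents that end each cardiac action potential. The transcripts of 9 genes of these channels were examined in whole hearts of untreated F344 rats, an inbred strain, and all 9 were found by symbol in the deposited expression tables. These were Kcnd2, Kcnd3 and Kcnip2 (transient outward current), Kcna5 (ultrarapid delayed rectifier), Kcnq1 with Kcne1 and Kcnh2 (slow and rapid delayed rectifiers), Kcnj2 (inward rectifier) and Kcnj11 (ATP-sensitive current). The 9 genes had 1 row each among 27408, 27383 and 26553 rows in the tables of young rats (8 weeks), adult rats (21 weeks) and old rats (78 weeks), and 10 of the 41012 probes on the array (Kcnd3 had 2). There were 5 females and 5 males at each age with 1 one-colour array per rat, and all rats were bred in a single research colony and fed the same diet. The hearts were measured whole, so atria, ventricles and the conduction system were mixed in each sample, and fewer cells of a type and less RNA per cell cannot be told apart.

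The channels are built from pore-forming subunits, which give each current its voltage dependence, and from accessory subunits, which set its speed and its density at the cell surface. Kcnd2 and Kcnd3 (Kv4.2 and Kv4.3) form the pore of the fast transient outward current, the main repolarizing current of the rodent ventricle, and Kcnip2 (KChIP2) is the calcium-binding subunit that brings them to the membrane. Kcnq1 and Kcne1 together form the slow delayed rectifier, and Kcnj11 (Kir6.2) couples the membrane potential to the energy state of the cell.

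The probes of 3 accessory and pore-forming subunits are printed because the age comparisons turn on Kcne1 and Kcnip2 and because Kcnq1 is the pore-forming partner of Kcne1. Each is a 60-base array oligonucleotide, 5′ to 3′, in lower case and with no part marked, with its position on the rat build rn3 as annotated in the array files. The intervals of Kcnip2 (345 bases, minus strand, chr1:251271810-251272154) and Kcnq1 (3880 bases, plus strand, chr1:203886481-203890360) were longer than the probes, as a probe across an exon junction has. The Kcne1 probe (minus strand, chr11:32401046-32401105) had an interval of its own 60 bases.
Kcnip2: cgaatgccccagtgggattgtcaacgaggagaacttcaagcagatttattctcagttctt
Kcnq1: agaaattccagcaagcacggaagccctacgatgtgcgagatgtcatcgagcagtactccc
Kcne1: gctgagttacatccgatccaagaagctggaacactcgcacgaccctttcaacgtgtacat
Both Kcnd3 probes were annotated on chromosome 3 in rn3, whereas the gene lies on chromosome 2 in the newer build GRCr8, and the other 8 genes kept their chromosome.

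The scanner software called 17182 to 24290 spots per array well above background, and the 75th percentile of the signal, by which each array was scaled, lay between 39.9 and 171.3, with the lowest values in 21-week males. The 21-week arrays were on slides of their own and were scanned on the second of 2 days, the 8-week arrays were scanned on the first day, and the 78-week arrays were split between the days. Only 1 slide held arrays of 2 ages (8 and 78 weeks, 2 each). According to the methods the ages were handled in different batches and the sexes of an age together, so differences between ages cannot be told apart from differences between batches. The Y-linked genes Ddx3y and Eif2s3y had values typical of the opposite sex on the 78-week arrays labelled female replicate 2 and male replicate 3. The sex differences of single members described at 78 weeks are given with and without these 2 discordant arrays. Those of other genes, the tests of same-numbered pairs and the age differences within 1 sex include them. The cardiomyocyte markers Myh6, Tnnt2, Tnni3, Actc1 and Ryr2 were well above background on all 30 arrays.

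Expression of 5 of the 9 genes was measurable in every rat. Kcnd2, Kcnip2, Kcnq1, Kcnh2 and Kcnj11 were well above background on 30 of 30 arrays, Kcne1 on 24 and Kcna5 on 23. Kcnj2, the gene of the main inward rectifier Kir2.1, passed on 4 arrays, and of the Kcnd3 probes 1 passed on a single array and the other on none, so little can be read from their values. Detection of Kcne1 and Kcna5 went opposite ways with age. Kcne1 was well above background on 6 of 10 arrays at 8 weeks, 8 at 21 weeks and 10 at 78 weeks, and Kcna5 on 10, 8 and 5 arrays.

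**Figure D1:**
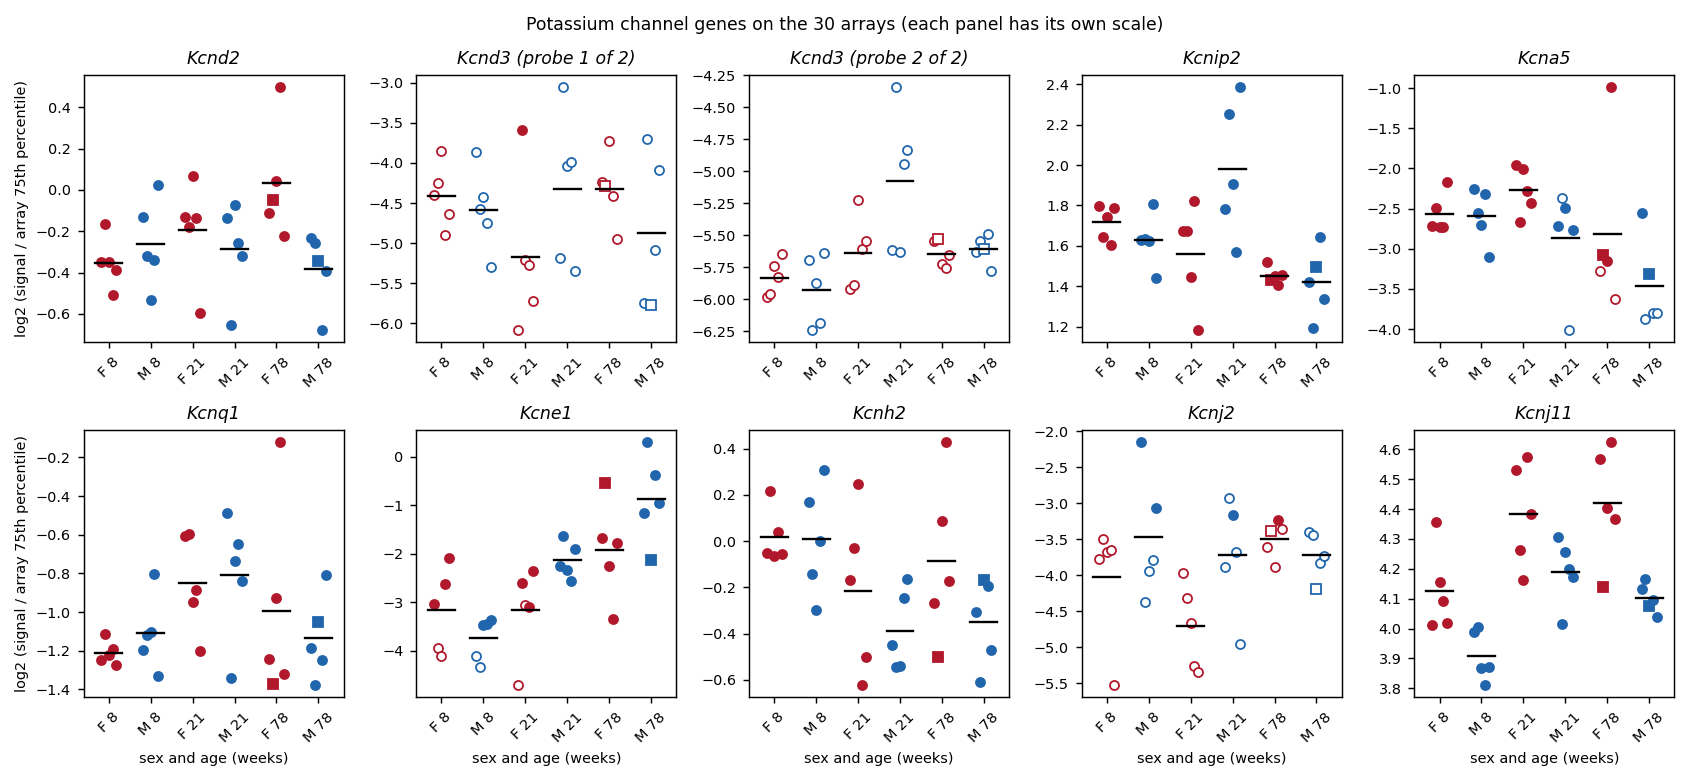
Level of each probe on each array, as log2 signal relative to the 75th percentile of its array (y axis), by age and sex (females in red and males in blue, with black bars at the group means of 5 arrays, open symbols where not well above background and squares for the 2 discordant arrays). Kcne1 rises from means of -3.15 (females) and -3.74 (males) at 8 weeks to -1.92 and -0.86 at 78 weeks, while Kcnj11 stays between 3.81 and 4.63 on every array.

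The first comparison set females against males within each age, which is the question the study was designed for. None of the 9 genes differed at any age after adjustment over all rows of the table (limma, Benjamini-Hochberg adjusted p, smallest 0.806, 0.285 and 0.856 at 8, 21 and 78 weeks). Over all rows 0.102%, 0.0511% and 0% passed at these ages. At an unadjusted limma p under 0.05 there were 1, 3 and 2 of the 9 genes, against 5.74%, 15.9% and 5.65% of all rows. The median female-minus-male difference of the 9 genes was 0.01, -0.05 and 0.24 on the log2 scale, against -0.0043, -0.14 and -0.0038 over all rows. The sex differences within an age are on log2 of the deposited values unless another processing is named. For 8 of the 9 genes these differ from the scanner values plotted by a constant for each array.

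Kcnj11 was the gene that passed the unadjusted threshold at more than 1 age with higher expression in females compared to males. At 8 weeks the females had 3.32, 3.65, 3.47, 3.41 and 3.33 and the males 3.31, 3.33, 3.19, 3.15 and 3.18 on the log2 scale. At 21 weeks the females had 3.82, 3.56, 3.45, 3.88 and 3.66, and the male columns, which carry no replicate number, 3.62, 3.31, 3.58, 3.54 and 3.43. At 78 weeks the values were 3.75, 3.36, 3.61, 3.81 and 3.58 in females against 3.35, 3.40, 3.31, 3.28 and 3.28 in males. At 8 and 78 weeks 4 of 5 females lay above every male, and at 21 weeks 3 did. The female at 78 weeks within the male range, at 3.36, was replicate 2, a discordant array. The difference was 0.21 ± 0.081 (SE, n = 5 per sex, 1.15-fold, two-sided exact permutation p = 0.0159) at 8 weeks and 0.30 ± 0.10 (1.23-fold, exact permutation p = 0.0159) at 78 weeks, with limma adjusted p of 0.806 and 0.856. At 21 weeks it was 0.18 ± 0.13 (1.13-fold, exact permutation p = 0.103, limma adjusted p = 0.447). Without the 2 discordant arrays, the 78-week sexes no longer overlapped (difference 0.36, 1.28-fold, exact permutation p = 0.0286, the smallest that 4 against 4 rats allow). With same-numbered rats of 78 weeks taken as pairs by label, which shared a slide, the female was higher in 4 of 5 pairs (paired exact permutation p = 0.125). By the Y-linked genes, pairs 2 and 3 each held 2 arrays of 1 sex. In those pairs this test, here and for the genes below, compares labels and not sexes. With another background correction (normexp) the 78-week difference turned to -0.16, so its direction depends on that step. Averaged over the 3 ages on the scanner values, a comparison chosen after seeing the data, Kcnj11 was higher in females by 0.24 ± 0.059 and missed the threshold (limma adjusted p = 0.065, with 0.337% of all probes passing). Without the 2 discordant arrays that value was 0.26, with an adjusted p of 0.0309, where 347 of 40995 probes passed. Of 7 alternatives apart from leaving out single rats, it passed in 2 (limma adjusted p from 0.019 to 0.961).

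By label, Kcnd2 was the only member whose sexes did not overlap with all arrays included, and this was at 78 weeks. The females had -0.93, -0.83, -0.75, -0.32 and -1.01 and the males -1.01, -1.03, -1.11, -1.49 and -1.15. Female replicate 5 and male replicate 1 lay next to each other. The discordant arrays, female replicate 2 at -0.83 and male replicate 3 at -1.11, lay within the range of their label. Grouped by the Y-linked genes, the sexes overlapped. The female mean was higher by 0.39 ± 0.15 (SE, n = 5 per sex, 1.31-fold), with an exact permutation p of 0.0079, the smallest that 5 against 5 rats allow, and a limma adjusted p of 0.856. Over all rows 1.41%, 4.05% and 0.9% did not overlap at 8, 21 and 78 weeks. The labelled female was higher in 5 of 5 same-numbered pairs, by 0.087 to 1.18, and 2 of these pairs held arrays of 1 sex by the Y-linked genes. The paired exact permutation p was 0.0625, the smallest that 5 pairs allow. The difference was 0.42 without the 2 discordant arrays. Female replicate 4 had the highest value, and leaving out single rats gave 0.28 to 0.45. At 8 and 21 weeks Kcnd2 differed by -0.10 ± 0.11 and 0.08 ± 0.17, and the interaction of sex with age between 78 and 8 weeks had an unadjusted limma p of 0.0212 (adjusted p = 1.0).

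Kcne1 had lower means in females at 21 and 78 weeks and a higher mean at 8 weeks. At 21 weeks the females had -5.41, -3.30, -3.77, -3.79 and -3.07 and the males -2.93, -2.34, -3.02, -3.22 and -2.63, and 2 of the 5 females were not well above background. Only the female at -3.07 lay above the lowest male. The difference was -1.04 ± 0.39 (2.05-fold, exact permutation p = 0.0159, limma adjusted p = 0.285). Its size depended on the processing, with -1.04 to -0.41 over the alternative fits apart from leaving out single rats. At 78 weeks the females had -2.49, -1.32, -3.03, -4.16 and -2.56 and the males -1.94, -0.46, -2.90, -1.19 and -1.71. The discordant arrays, female replicate 2 at -1.32 and male replicate 3 at -2.90, were the highest female and the lowest male. Grouped by the Y-linked genes, the sexes did not overlap, with the highest female at -2.49 and the lowest male at -1.94. No test and no share over all rows was computed for that grouping. With all 10 rats by label the difference was -1.08 ± 0.55 (exact permutation p = 0.119, limma adjusted p = 0.856). The labelled female was lower in 5 of 5 same-numbered pairs, which include the discordant arrays (paired exact permutation p = 0.0625). Without the 2 discordant arrays the difference was -1.74 (3.34-fold) with no overlap (exact permutation p = 0.0286, limma adjusted p = 0.389). Over the alternative fits, apart from leaving out single rats, the 78-week difference lay between -1.74 and -0.31. At 8 weeks the difference was 0.58 ± 0.40 (exact permutation p = 0.214).

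Kcnip2 was lower in females at 21 weeks by 0.43 ± 0.18 on the log2 scale, from 0.97, 0.97, 0.73, 1.13 and 0.46 in females and 1.10, 1.55, 1.23, 0.91 and 1.65 in males, with overlap (exact permutation p = 0.0556, limma adjusted p = 0.302), and the difference was 0.05 in the other direction with the normexp background. At 8 and 78 weeks the sexes differed in Kcnip2 by 0.08 and 0.01 (0.04 at 78 weeks without the discordant arrays). Kcnj2 passed the unadjusted threshold at 21 weeks but was not well above background in any female and in 4 of 5 males of that age, and no fold is given for it (limma adjusted p = 0.293). The Kcnd3 row, likewise dim, differed by 0.12, -0.72 and 0.24 at 8, 21 and 78 weeks (limma adjusted p = 0.316 at 21 weeks). At 78 weeks it differed by 0.11 without the discordant arrays. For Kcnq1, the pore-forming partner of Kcne1, the sexes differed by -0.11 ± 0.10, -0.05 ± 0.19 and 0.12 ± 0.23 at 8, 21 and 78 weeks, and for Kcnh2 by -0.0038 ± 0.12, 0.16 ± 0.18 and 0.25 ± 0.17. Without the discordant arrays the 78-week differences were 0.23 for Kcnq1 and 0.39 for Kcnh2 (exact permutation p = 0.600 and 0.0571). In Kcnh2 the labelled female was higher in 5 of 5 same-numbered pairs of that age, which include the discordant arrays (paired exact permutation p = 0.0625). Leaving out single rats of 78 weeks gave 0.12 to 0.34 for Kcnh2. Kcna5, well above background in 3 of 5 males at 21 weeks, had a difference of 0.59 ± 0.29 there (exact permutation p = 0.0556, limma adjusted p = 0.336), which turned to -0.19 with the normexp background.

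**Figure D2:**
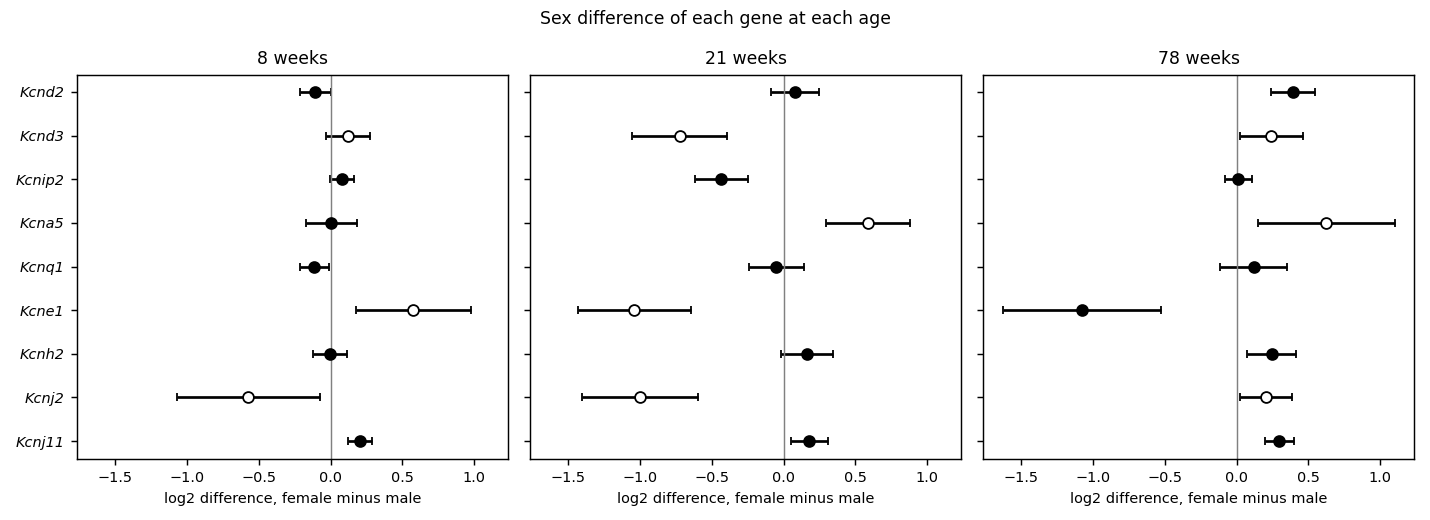
Female-minus-male difference (x axis, log2 of the deposited values, ± SE, n = 5 per sex) of the 9 genes at each age; open points mark genes not well above background on all 10 arrays of that age. Kcnj11 lies above 0 at each age (0.21, 0.18 and 0.30), whereas Kcne1 goes from 0.58 at 8 weeks to -1.04 and -1.08 at 21 and 78 weeks.

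Ages were compared on the scanner values in a fit of all 6 groups with the sexes weighted equally. Since ages and batches cannot be told apart, these are differences between the arrays of the ages. They are read beside the median of all probes, which was 0.28 for 21 against 8 weeks, 0.13 for 78 against 8 and -0.17 for 78 against 21 on the log2 scale (0.05, 0.0049 and -0.05 after quantile normalization). Between 78 and 8 weeks 2 of the 10 member probes passed (Kcne1 and Kcnj11, both higher), against 10.8% of all probes (5.95% higher and 4.89% lower). Between 21 and 8 weeks 5 passed (Kcne1, Kcnj11, Kcnq1 and a Kcnd3 probe higher, Kcnh2 lower), against 56.8% (41.5% higher and 15.2% lower). After quantile normalization 7392 probes were higher and 6364 lower at 21 weeks, against 17032 and 6248 before it. Between 78 and 21 weeks 2 passed (Kcne1 higher, Kcnip2 lower), against 32.2% (14% higher and 18.2% lower). The members' median difference was 0.11, 0.08 and 0.02 in the same order.

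Kcne1, the accessory subunit that slows Kcnq1 channels, had the largest age differences of the 10 probes between 78 and 8 weeks. Among the young rats the females had -3.03, -3.93, -4.10, -2.61 and -2.09 and the males -4.11, -4.33, -3.46, -3.44 and -3.37 as log2 signal relative to the 75th percentile. Among the old rats the females had -1.68, -0.54, -2.24, -3.34 and -1.78 and the males -1.16, 0.31, -2.13, -0.37 and -0.95. All 10 old rats lay above the mean of the young rats, and 7 lay above every young rat. Kcne1 rose by 2.08 ± 0.32 between 8 and 78 weeks (SE, n = 10 per age, 4.24-fold, limma adjusted p = 4.5e-05). The size depended on the background step, with 0.82 after normexp correction (adjusted p = 0.0013) and 0.97 on uncorrected signals, and leaving out single rats gave 1.91 to 2.27. On the first scan day, which held 10 arrays of 8 weeks and 6 of 78 weeks, it was 2.21 (adjusted p = 0.0020). On the slide that held both ages, with 2 arrays each, it was 1.31 (adjusted p = 0.523). In males alone Kcne1 was higher by 2.91 ± 0.47 (7.50-fold, adjusted p = 2.3e-04) and in females alone by 1.26 ± 0.47 (adjusted p = 0.191), where 3.94% and 2.47% of all probes passed. Only 3 of 5 young males and 3 of 5 young females were well above background, so these sizes rest in part on dim values. The difference between the sexes in this change was -1.65 ± 0.68 (limma adjusted p = 1.0, with 0% of all probes passing this interaction), and -2.31 without the 2 discordant arrays (adjusted p = 0.879).

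At 21 weeks Kcne1 was in between, with a lowest, median and highest value of -4.70, -2.45 and -1.64 against -4.33, -3.45 and -2.09 at 8 weeks and -3.34, -1.42 and 0.31 at 78 weeks. It rose by 0.80 ± 0.32 from 8 to 21 weeks (limma adjusted p = 0.0327), which lost significance in 8 of 20 fits that left out a rat (adjusted p up to 0.072) and was -0.0049 in females and 1.61 in males, where 7.31% and 53.1% of all probes passed. It rose by a further 1.28 ± 0.32 from 21 to 78 weeks (adjusted p = 0.0022), with 1.26 ± 0.47 in females (adjusted p = 0.092) and an interaction of -0.03 ± 0.68. After normexp correction the later step was 0.41 and no longer passed (adjusted p = 0.171).

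Kcnq1, the pore that Kcne1 joins, had a lowest, median and highest value of -1.33, -1.19 and -0.80 at 8 weeks, -1.34, -0.79 and -0.48 at 21 weeks and -1.38, -1.22 and -0.12 at 78 weeks. The ages overlapped widely. Kcnq1 rose by 0.33 ± 0.12 from 8 to 21 weeks (limma adjusted p = 0.0246), close to the median of all probes, and differed by 0.10 ± 0.13 between 78 and 8 weeks (adjusted p = 0.629). Kcnh2, the pore of the rapid delayed rectifier, fell by 0.31 from 8 to 21 weeks (SE 0.11, adjusted p = 0.0168), against a rise in the median of all probes, from a range of -0.30 to 0.31 to one of -0.62 to 0.25, and the fall did not pass with normexp (adjusted p = 0.070). Between 78 and 8 weeks Kcnh2 differed by -0.22 ± 0.11 (adjusted p = 0.167).

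Kcnip2 had its lowest mean in old rats. The lowest, median and highest values were 1.44, 1.64 and 1.81 at 8 weeks, 1.18, 1.73 and 2.39 at 21 weeks and 1.19, 1.44 and 1.64 at 78 weeks. At 21 weeks the females had 1.67, 1.67, 1.45, 1.82 and 1.18 and the males 1.78, 2.25, 1.91, 1.57 and 2.39. All 10 old rats lay below the mean of either younger age, and 5 lay below every young rat. Kcnip2 fell by 0.34 from 21 to 78 weeks (SE 0.087, 1.26-fold, limma adjusted p = 0.0033), with -0.56 in males (adjusted p = 0.0013) and -0.11 in females (adjusted p = 0.794), where 32.1% and 9.04% of all probes passed. The interaction of sex with age was 0.45 ± 0.19 (limma adjusted p = 0.352, with 0.00244% of all probes passing) and turned to -0.21 with normexp. Against 8 weeks the old rats were at -0.24 ± 0.088 (adjusted p = 0.0796). This passed after quantile normalization (-0.24, adjusted p = 0.0319), on uncorrected signals (-0.28, adjusted p = 0.0198), without dim probes (adjusted p = 0.0385) and on the first scan day (-0.25, adjusted p = 0.0158). It did not pass in the other 7 of 11 alternatives (limma adjusted p up to 0.924), nor in any fit that left out a rat. The fall from 21 to 78 weeks was -0.20 after normexp (adjusted p = 0.938) and -0.31 on the second scan day (adjusted p = 0.336). Kcnd2, the pore that Kcnip2 serves, differed by 0.14 ± 0.096 between 78 and 8 weeks (adjusted p = 0.336) and by 0.06 ± 0.095 between 78 and 21 weeks.

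Kcnj11 had a lowest, median and highest value of 3.81, 4.01 and 4.36 at 8 weeks, 4.01, 4.26 and 4.57 at 21 weeks and 4.04, 4.15 and 4.63 at 78 weeks. All 10 old rats lay above the mean of the young rats, and the ages overlapped. It was higher by 0.27 ± 0.067 at 21 weeks (limma adjusted p = 0.0020) and by 0.24 ± 0.067 at 78 weeks (1.18-fold, adjusted p = 0.0206) than at 8 weeks. Both directions turned after normexp correction (-0.12 and -0.067), and the first difference is close to that of the median probe. Kcna5, a delayed rectifier best known from the atrium, lay between -3.10 and -2.17 at 8 weeks and between -3.87 and -0.98 at 78 weeks. It differed by -0.57 ± 0.24 between 78 and 8 weeks (adjusted p = 0.122). Without female replicate 4 of 78 weeks, which had -0.98 against -3.08 to -3.62 in the other old females, it was -0.81 (adjusted p = 0.0031), and after normexp correction it turned to 0.16. The Kcnd3 probe that passed between 21 and 8 weeks was well above background on 0 of 30 arrays, and no fold is given for it. The other Kcnd3 probe did not pass between any ages. Kcnj2 differed by -0.47 between 21 and 8 weeks, 0.12 between 78 and 8 and 0.58 between 78 and 21, and none of these passed (limma adjusted p from 0.099 to 0.798). With normexp the first turned to 0.30 and the last to -0.01.

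**Figure D3:**
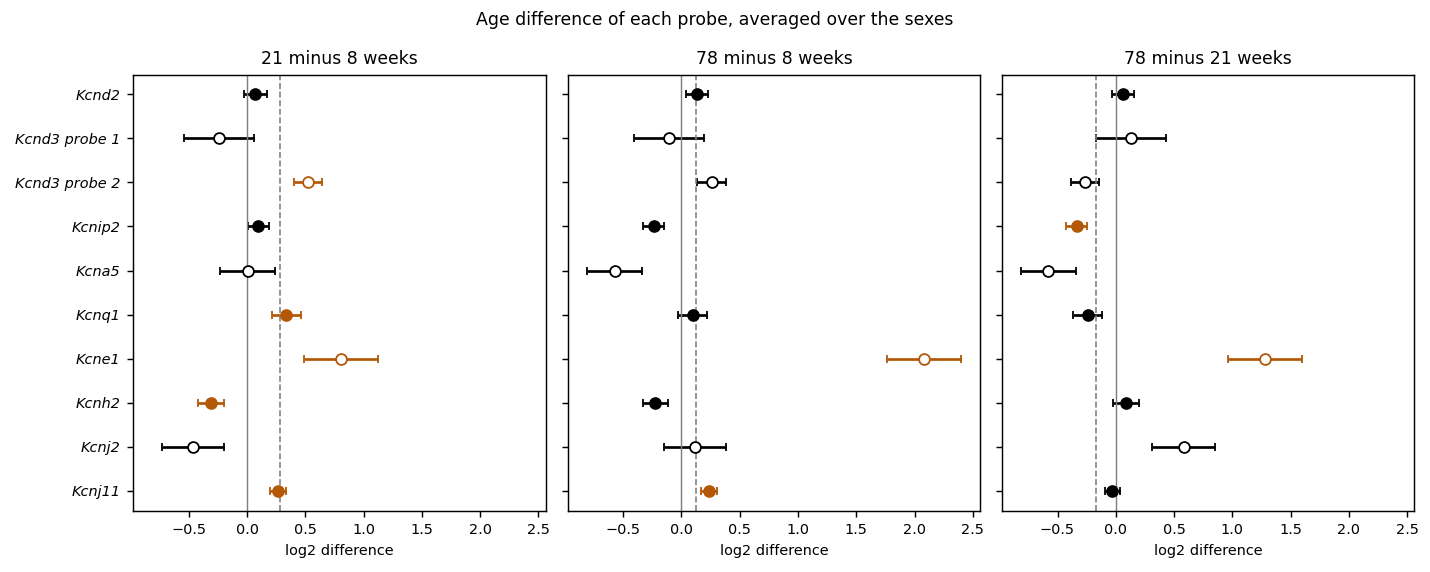
Difference between ages (x axis, log2, ± SE, n = 10 rats per age) for the 10 member probes; orange, limma adjusted p under 0.05; open, not well above background on all 30 arrays; dashed line, median of all probes. Kcne1 (2.08 between 78 and 8 weeks) lies farthest from the dashed line at 0.13.

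**Figure D4:**
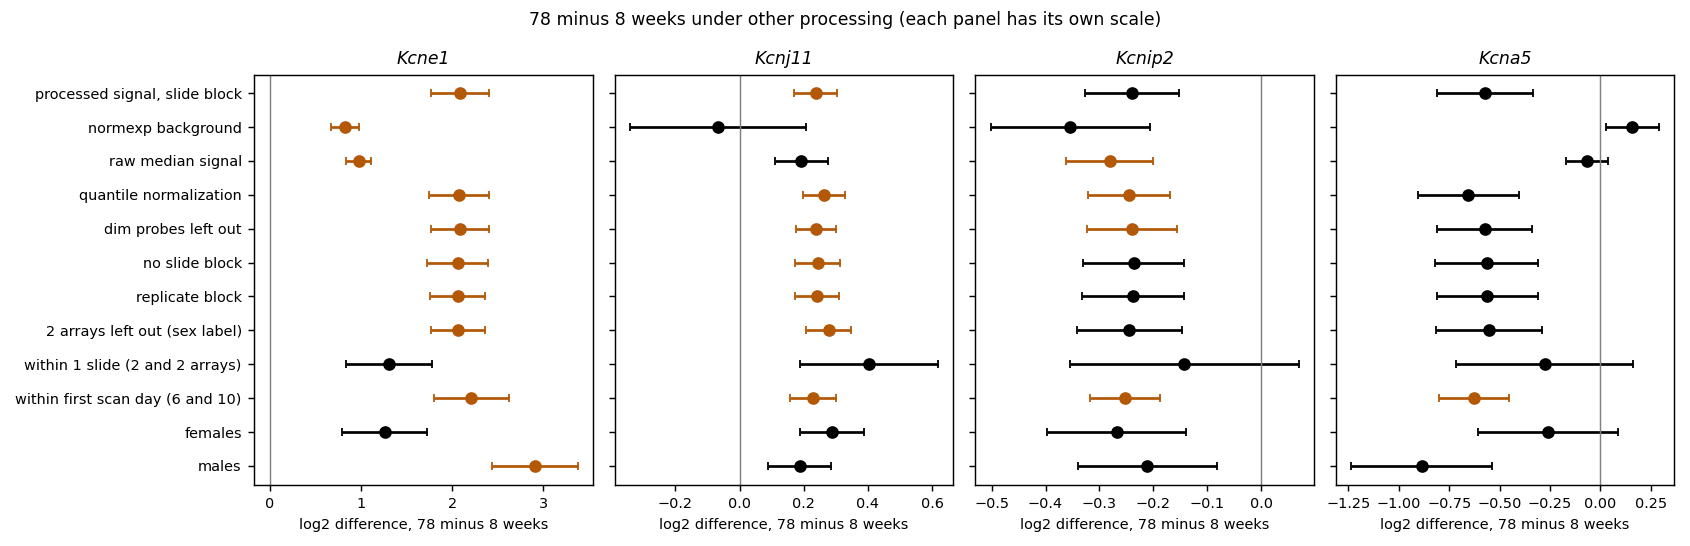
The 78-minus-8-week difference (x axis, log2, ± SE) of Kcne1, Kcnj11, Kcnip2 and Kcna5 under 12 settings of the processing and of the arrays used; orange, limma adjusted p under 0.05. Kcne1 is above 0 under each (0.82 to 2.91), Kcnip2 below 0 under each (-0.35 to -0.14), and Kcnj11 and Kcna5 change sign after normexp correction.

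Markers of other regions of the heart were set beside the rise of Kcne1, because the atria and the conduction system express it. The atrial list of Nppa, Myl4, Myl7 and Sln had 2 genes with a scanner probe, both well above background on all arrays, and 1 of them was higher at 78 than at 8 weeks. That was Nppa, the atrial natriuretic peptide (0.45, limma adjusted p = 0.011), which did not pass with normexp (0.14, adjusted p = 0.671) or quantile normalization (0.32, adjusted p = 0.152). Sln, the atrial calcium-pump regulator sarcolipin, differed by 0.11 (adjusted p = 0.673) and by -0.22 with normexp. The summed atrial level, as a multiple of the 75th percentile, ranged from 329 to 415 in females and from 300.3 to 417 in males at 8 weeks and from 327 to 526 and 397 to 780 at 78 weeks. Of the pacemaker list, 2 of 3 genes were higher, Hcn4 by 0.94 (adjusted p = 0.0041) and Tbx3 by 0.29 (adjusted p = 0.021). The other, Shox2, differed by -0.27 and did not pass. Of these 3 genes only Tbx3 was well above background on all arrays. None of the 5 cardiomyocyte or 2 ventricular markers passed. Of the ventricular markers, the Myl2 probe was far dimmer than that of Myl3. Its group means were -2.33 to -1.16 on the log2 scale, against 9.03 to 9.95 for Myl3, and female replicate 2 of 21 weeks had 2.36. With normexp neither Hcn4 (0.48, adjusted p = 0.076) nor Tbx3 (0.12, adjusted p = 0.286) passed, and on uncorrected signals Tbx3 did not (adjusted p = 0.052). At 78 weeks the female-minus-male differences of the 2 table rows of each gene were -0.54 and 0.02 for Nppa and -0.36 and -0.37 for Sln (limma adjusted p from 0.856 to 0.980). The part of these cells in the Kcne1 values was not tested.

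Of 49 other genes of potassium channels, their partners and regulators, 42 had a scanner probe, 13 of them well above background on all arrays. Between 78 and 8 weeks 5 were higher, 2 lower and 35 did not pass, where 10.8% of all probes passed. By role, 0 of 6 transient outward partners, 3 of 14 other voltage-gated subunits, 0 of 6 accessory beta and KCNE subunits, 3 of 6 inward rectifiers, 0 of 2 receptor subunits of the ATP-sensitive channel, 1 of 4 tandem-pore channels and 0 of 4 calcium-activated channels passed. Kcnj14 (Kir2.4) was higher by 1.19 ± 0.15 (limma adjusted p = 2.0e-06, 0.55 with normexp and 0.58 on uncorrected signals) and Kcnk2 (TREK-1) lower by 0.63 (adjusted p = 2.1e-04, 0.113 with normexp). Kcna1 (Kv1.1), well above background on 0 of 10 young and 5 of 10 old arrays, was higher by 2.00 (adjusted p = 8.6e-05), and by 0.59 both with normexp and on uncorrected signals. Between 21 and 8 weeks 14 were higher and 5 lower, where 56.8% of all probes passed, and 11 of these 19 genes were never well above background. The smallest adjusted p belonged to Abcc9 (SUR2, the partner of Kcnj11 channels, -0.92, 4.6e-07) and Kcnj3 (-1.19, 6.8e-07). Between 78 and 21 weeks 8 were higher and 5 lower, where 32.2% of all probes passed. These were led by Kcnq5 (1.07, adjusted p = 4.5e-08), Kcnj3 (1.25) and Abcc9 (0.79, which did not pass with normexp, 0.66, adjusted p = 0.126). These same 3 genes did not pass between 78 and 8 weeks. In the comparison of the sexes 30, 31 and 30 of the 49 genes had a row and none passed at any age. At 78 weeks Kcna1 had an unadjusted limma p of 9.9e-04 (female minus male -2.49, adjusted p = 0.849), and Kcnip3 differed by 0.49 (adjusted p = 0.856).

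Across the 30 arrays, after the mean of each group was subtracted, Kcnd2, Kcnq1 and Kcnh2 varied together (Pearson r of 0.56 for Kcnd2 with Kcnq1, 0.55 with Kcnh2 and 0.47 for Kcnq1 with Kcnh2). Kcnip2 did not share this pattern (r of -0.21 with Kcnd2, -0.05 with Kcnq1 and -0.0084 with Kcnh2). Arrays share depth, slide and scaling, so these values only describe the arrays. Female replicate 4 of 78 weeks had the highest value of its age in Kcnd2, Kcnq1 and Kcnh2 (-0.32, -0.93 and -0.39 in the deposited values). The correlations were not computed without that array. Of 14156 probes that were well above background on all arrays, the gene most like Kcnq1 was Rnasen (r = 0.86), and among the 3 probes most like each gene were also Ppp2r3a for Kcnh2 (0.78) and Dbt for Kcnj11 (0.76).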

How the data were processed

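Gene expression was measured on one-colour Agilent rat arrays (Cy3) in whole-heart RNA of 30 rats. The authors averaged probe intensity per gene, removed non-expressed genes and scaled to the 75th percentile; the deposited table of each age holds these linear signals, and the deposited scanner files hold background-subtracted processed intensity values from Agilent Feature Extraction. For 8 of 9 member rows the tables matched the scanner values within 0.002 log2 after a constant per array. Of all rows with a name shared by both, 55.6%, 56.0% and 55.1% matched at 8, 21 and 78 weeks. At 21 weeks this was checked on the 5 female arrays only. The members and gene lists were chosen with earlier results of these data known.

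Sexes were compared within each age on log2 of the table values with limma 3.58.1 in R 4.3.3 and by two-sided exact permutation tests of single genes. Ages, interactions and an added average sex difference used log2 processed signal relative to the 75th percentile of each array (control spots and flagged outlier spots left out, spots of a probe averaged) in 1 limma fit of 6 groups with slide as a random block (correlation -0.0415). P-values were adjusted by the Benjamini-Hochberg method over all rows or probes, with a threshold of 0.05. The fits were tested on simulated data. No pseudocount was used. Member rows and probes are described; other channel genes are named for up to 3 genes per comparison by smallest adjusted p and up to 6 at unadjusted p under 0.05; likeness was ranked over members well above background on all arrays. Some genes these rules name are not reported here. Genes named among the markers, and Kcnq5, Kcnj3 and Abcc9 at a comparison they did not pass, follow their lists.

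Alternatives were normexp background (offset 50), raw median signal, quantile normalization, scanner values for the tables, removal of dim probes or rows, slide and replicate blocks, an unmoderated 2-group linear model per row as in the methods, each rat left out, and fits within a slide, a scan day or a sex. Fits within a scan day or a sex, the average sex difference and tests of same-numbered pairs were added after seeing the data. Same-numbered females and males shared a slide in 15 of 15 pairs. Their deviations from the group means correlated above 0.1 in 5 of 5 pairs at 78 weeks (r from 0.139 to 0.305), which were taken as pairs, and in 1 and 3 of 5 at 8 and 21 weeks, where the numbers served as names. Nothing says that the rats came from separate litters, so p-values measure the spread between these rats, and the number of arrays limits the precision. Python 3.11.15, numpy 2.4.6, pandas 2.3.3 and matplotlib 3.10.9 were used.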

Additional observations from a re-analysis of the deposited data

Results flagged for a closer look

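Of 60 groups of 5 arrays tested over the 10 member probes, 3 held a value far from the other 4 by Dixon's criterion (gap over range above 0.71), and chance marks about 1 group in 20. Kcna5 on female replicate 4 of 78 weeks was -0.98 on the log2 scale, with the next female at -3.08, and was well above background there. Kcna5 on male replicate 4 of 21 weeks was -4.01, with the next male at -2.76, and Kcnj2 on female replicate 5 of 8 weeks was -5.52, with the next female at -3.77. These last 2 values were not well above background.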

How the results depend on the processing

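No member passed the adjusted threshold for sex at a single age, or for an interaction, under any alternative. The numbers of member probes called between 21 and 8 weeks (5), 78 and 8 weeks (2) and 78 and 21 weeks (2) became 0, 1 and 0 with normexp and 3, 3 and 4 with quantile normalization. In females alone they were 0 in all 3 comparisons, where 7.31%, 2.47% and 9.04% of all probes passed. In males alone 1 passed between 78 and 8 weeks (3.94% of all probes). Between 21 and 8 weeks Kcne1, Kcnh2, Kcnip2, Kcnj11 and a Kcnd3 probe passed in males (53.1%). Between 78 and 21 weeks Kcne1, Kcnip2 and that Kcnd3 probe did (32.1%). For 78 against 8 weeks 0 passed within the shared slide (0 of 40973 probes) and 5 within the first scan day (10593 of 41007). For 78 against 21 weeks 0 passed within the second scan day (2057 of 41001). Leaving out single rats gave 3 to 6, 2 to 3 and 2 to 4 between 21 and 8, 78 and 8, and 78 and 21 weeks. For the average sex difference (0 called) 1 was called without dim probes, without the 2 discordant arrays, and in leave-outs of male replicate 1 of 21 weeks and female replicate 2 of 78 weeks (0 to 1). Reversed values were those of Kcnj11 with normexp (-0.12 and -0.067) and of Kcne1 between 21 and 8 weeks in females (-0.0049). The cause was not tested.

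With the replicate number as a block, a pairing that the arrays bear out at 78 weeks but not at 8 and 21 weeks, no member call by adjusted p changed: 0 members were called for sex at each age and 5 and 2 between 21 and 8 and between 78 and 8 weeks. Over all features, the sex calls of 28, 14 and 0 became 5, 4 and 0 with that block and 15 and 6 (8 and 21 weeks) with a slide block, and were 21, 14 and 0 by the unmoderated model of the methods (1780, 4361 and 1547 unadjusted). Fits with normexp and on raw signals used the scanner values at each age, and so did the block and male leave-out fits of 21 weeks (35578 names in place of 27383 table rows), since the male columns carry no replicate number. At that age the scanner values alone gave 13 calls, normexp 1 and raw signals 38. At 78 weeks the calls were 9 without the 2 discordant arrays.

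Over all probes, the counts of 23280, 4441 and 13204 called between 21 and 8, 78 and 8, and 78 and 21 weeks became 3368, 868 and 1377 with normexp and 2997, 1011 and 3706 in females alone. Between 21 and 8 weeks they were 13756 with quantile normalization and 13339 without dim probes, where fewer probes were tested. Between 78 and 8 weeks they were 1617 in males alone, 10593 on the first scan day and 0 on the shared slide (3783 at an unadjusted limma p under 0.05), and between 78 and 21 weeks 2057 on the second scan day. For the average sex difference 138 became 7 with normexp, 262 on raw signals, 217 with quantile normalization, 615 without dim probes and 347 without the discordant arrays. Leaving out male replicate 1 of 21 weeks gave 595 of them, and 41 in place of 1 for the interaction of sex with age between 21 and 8 weeks. Kcnj2 and Kcnd3 were limited by signal, since they were well above background on at most 4 arrays.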
